A study of Mus musculus with 3 samples.

Results

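The subject is chromatin accessibility at 42 genes of the interferon and cGAS-STING pathways, read by single-cell ATAC-seq. In this assay a transposase inserts adapters into open DNA, and the insertions are counted for each nucleus by its barcode. The genes were taken by name from a list, and all 42 were found among the 21889 genes of the mouse gene table (build mm10). They comprised 7 receptors, kinases and STATs, 6 interferon regulatory factors, 8 nucleic acid sensors and adaptors, and 21 genes that interferon induces. The 3 libraries of the series were PDGFB-NLS overexpression, PDGFB-WT overexpression and Control, with 1 library in each group. Per the labels, the material was mouse glioma from piggyBac in utero electroporation, a method that places transposon plasmids in the embryonic brain, and nuclei were taken from the dissociated tumors. PDGFB is a growth factor ligand, and the labels do not spell out NLS. Glioma is the labelled tissue of each library, while the authors' name for the deposited Control matrix calls it normal. The labels do not say what was electroporated in Control or whether a tumor had formed, so what a ratio over Control compares is known only as far as that. The series title names mutant IDH, but no label gives an IDH allele to any of these libraries. The sources used here do not give the strain, the age or the number of animals behind a library. Because each group was a single library, no difference could be set against replicate spread, no test between groups was possible, and every interval below covers counting error only.

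Type I interferons bind a receptor made of IFNAR1 and IFNAR2, and interferon gamma binds IFNGR1 and IFNGR2. The kinases JAK1 and TYK2 pass the signal to STAT proteins, and a complex that holds STAT2 and IRF9 binds interferon-stimulated response elements in the promoters of antiviral genes. The enzyme cGAS detects DNA in the cytosol and makes a cyclic dinucleotide that activates STING, which leads to activation of IRF3 and to interferon production. DNA that leaks from missegregated chromosomes is a known trigger of cGAS, and in brain tissue microglia and macrophages are known to carry much of this pathway.

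The measured signal was the count of peaks within 1000 bp of either end of a gene, summed over the nuclei of a library. It is given as CPM, the count scaled to 1000000 counts in the regions called in all 3 libraries. After a minimum of 200 counts per barcode, PDGFB-NLS held 10996 barcodes and 31177621 counts, PDGFB-WT 7441 barcodes and 7008951 counts, and Control 2226 barcodes and 31588784 counts. The median barcode held 2767.5, 821 and 13054 counts in the same order. Peaks had been called separately in each library, with 127094, 57616 and 107627 peaks, so a gene end without a peak is one whose count is unknown. PDGFB-NLS and PDGFB-WT had 118 barcode sequences in common, PDGFB-NLS and Control 45, and PDGFB-WT and Control 22. Gene ends of oligodendrocyte precursor markers summed to 278 CPM in PDGFB-NLS, 359 CPM in PDGFB-WT and 187 CPM in Control. Those of 20 microglia or macrophage markers summed to 481, 406 and 540 CPM in the same order, and 5 of the 20 had no peak in PDGFB-WT (Aif1, Ctss, Fcgr3, Itgam and Trem2). A level summed over a library joins the share of each kind of nucleus with the accessibility per nucleus, and these cannot be told apart in it.

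The letters of an interferon-stimulated response element were found in the promoters of 8 induced genes. The letters searched were GAAA, then any 2 bases, then GAAA again, on both strands, in the window from 250 bases before to 50 bases after each start site in RefSeq (GRCm38.p6, the assembly of mm10). Of the 34 members with such a window, 12 (35.3%) held a match, against 3.99% of 27025 genes. By role, a match was found in 8 of 15 induced genes (53.3%), 2 of 6 sensors and adaptors (Ifih1 and Eif2ak2), 1 of 6 interferon regulatory factors (Irf2) and 1 of 7 receptors, kinases and STATs (Stat2). The gamma-activated site, searched as TTCNNNGAA, was found in 10 of 34 members (29.4%) and in 9.55% of all genes. The 160 bases before the start of the 8 induced genes with a response element are shown because they are the response elements found among the induced genes. Each is given 5′ to 3′ on the strand of the gene, and capitals mark the matched letters, on either strand, with overlapping matches joined.
Isg15 (chr4:156200819-156200978, minus strand): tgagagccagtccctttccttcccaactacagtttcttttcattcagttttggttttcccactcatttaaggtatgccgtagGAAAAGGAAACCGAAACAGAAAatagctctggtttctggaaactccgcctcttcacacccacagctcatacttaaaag
Ifit1 (chr19:34640729-34640888, plus strand): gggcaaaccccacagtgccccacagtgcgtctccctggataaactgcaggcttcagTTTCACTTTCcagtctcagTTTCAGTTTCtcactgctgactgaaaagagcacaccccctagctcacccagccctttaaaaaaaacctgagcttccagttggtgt
Ifit3 (chr19:34583369-34583528, plus strand): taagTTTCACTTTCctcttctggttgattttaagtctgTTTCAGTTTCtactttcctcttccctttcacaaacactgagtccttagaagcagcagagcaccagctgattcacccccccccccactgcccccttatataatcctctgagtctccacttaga
Rsad2 (chr12:26456453-26456612, minus strand): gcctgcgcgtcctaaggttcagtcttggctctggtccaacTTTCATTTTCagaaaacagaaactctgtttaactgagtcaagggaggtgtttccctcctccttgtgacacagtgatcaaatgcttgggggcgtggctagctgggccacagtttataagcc
Bst2 (chr8:71537473-71537632, minus strand): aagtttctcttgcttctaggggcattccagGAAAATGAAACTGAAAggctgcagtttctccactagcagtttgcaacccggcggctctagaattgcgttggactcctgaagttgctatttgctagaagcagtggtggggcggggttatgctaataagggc
Gbp2 (chr3:142620503-142620662, plus strand): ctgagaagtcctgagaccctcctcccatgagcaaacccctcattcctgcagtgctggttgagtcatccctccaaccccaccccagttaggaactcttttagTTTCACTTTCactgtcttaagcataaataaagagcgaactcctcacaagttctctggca
Gbp3 (chr3:142559884-142560043, plus strand): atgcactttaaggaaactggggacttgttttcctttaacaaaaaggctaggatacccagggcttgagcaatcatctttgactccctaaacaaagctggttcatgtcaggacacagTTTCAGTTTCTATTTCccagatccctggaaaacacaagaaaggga
Oas3 (chr5:120777660-120777819, minus strand): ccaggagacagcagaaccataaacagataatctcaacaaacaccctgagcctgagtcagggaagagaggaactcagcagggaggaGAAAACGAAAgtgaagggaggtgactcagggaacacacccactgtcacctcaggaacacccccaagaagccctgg
The matches were not placed alike. In Isg15 3 overlapping matches made a block of 22 bases that began 78 bases before the start, and Ifit1 and Ifit3 each held 2 separate matches. A peak lay over the start of Ifit1, Rsad2 and Bst2 in all 3 libraries and over that of Isg15 and Ifit3 in PDGFB-NLS and Control. No library had a peak over the starts shown for Gbp2, Gbp3 and Oas3. Gbp3 has a second annotated start, 142560356 on chromosome 3, which lay under a peak in all 3 libraries. Oas3, an oligoadenylate synthetase that detects double-stranded RNA, was the 1 member of 42 with no peak at either end in any library.

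Accessibility followed the roles in the same order in each library, with the receptors and their kinases most open and the induced genes least. Per kb of peak, receptors, kinases and STATs had a median of 65.9 CPM per kb in PDGFB-NLS, 71.2 in PDGFB-WT and 58.6 in Control. The medians over all genes with a peak were 32.0, 38.3 and 33.6 CPM per kb. Interferon regulatory factors had medians of 41.5, 44.1 and 46.5 CPM per kb, and sensors and adaptors 15.3, 19.4 and 15.6. Induced genes had medians of 12.9 CPM per kb in PDGFB-NLS, 17.7 in PDGFB-WT and 12.1 in Control. Among the induced genes with a peak, 1 of 20 in PDGFB-NLS, 0 of 15 in PDGFB-WT and 1 of 20 in Control stood above the median gene. Of the sensors and adaptors 1 of 8 did in each library, and that was Mavs, the mitochondrial adaptor of the RNA sensors, which also stood highest of its role in CPM.

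**Figure D1:**
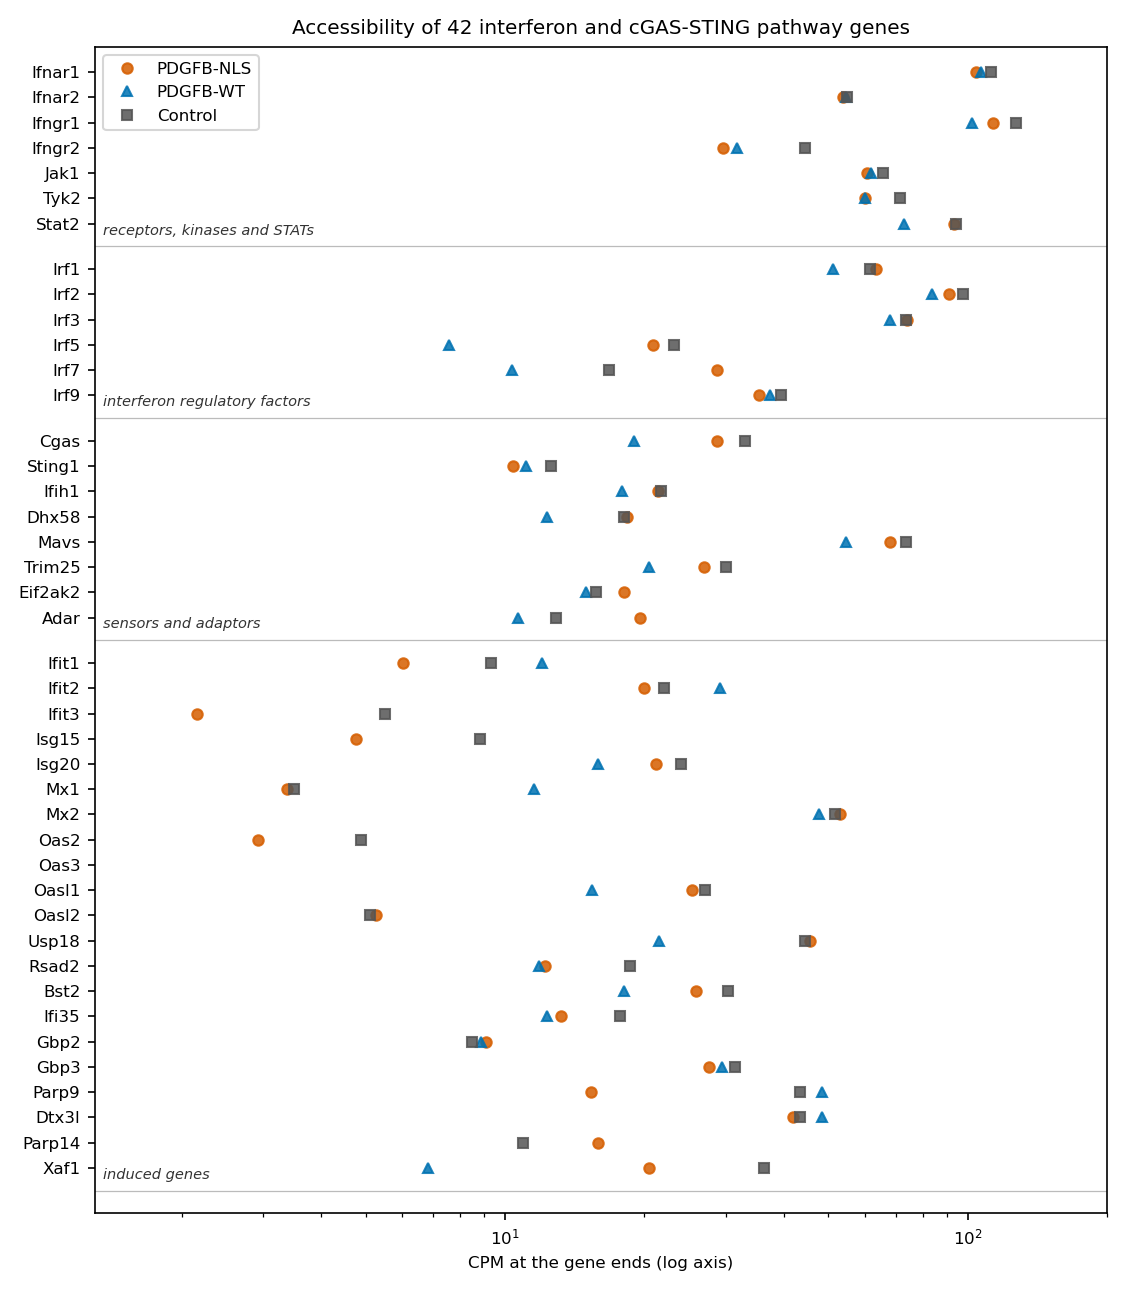
CPM at the ends of the 42 members (horizontal log axis) in PDGFB-NLS (circles), PDGFB-WT (triangles) and Control (squares), 1 library each, with genes grouped by role and the role named at the foot of each block. A missing symbol means that no peak was called there. The symbols of a receptor or kinase lie close together, within 59.9 to 71.5 CPM for Tyk2, while those of induced genes such as Xaf1 spread from 6.82 to 36.3 CPM.

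Differences between libraries are given as log2 ratios of CPM relative to the median of all compared genes, which was 0.14 for PDGFB-NLS over PDGFB-WT, -0.01 for PDGFB-NLS over Control and -0.17 for PDGFB-WT over Control. A gene was compared if the library with fewer counts held at least 100. That minimum equals 4.07 CPM in PDGFB-NLS, 14.8 CPM in PDGFB-WT and 3.88 CPM in Control, so it fell hardest on PDGFB-WT. It left 25 of the 42 members compared with PDGFB-WT and 38 for PDGFB-NLS over Control. Of the 17 members lost to PDGFB-WT, 6 had no peak there and 11 had 46 to 83 counts. The comparisons share libraries and are therefore not independent of one another.

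Members lay on both sides of the all-gene median in each comparison, most evenly in those with PDGFB-WT, while in PDGFB-NLS over Control more lay below it. For PDGFB-NLS over PDGFB-WT, the median of the 25 compared members was 0.00, with 13 above the all-gene median. Past 1.5-fold, 1 member was higher (Usp18) and 2 were lower (Ifit2 and Parp9). Over all 10865 compared genes, 2.46% were higher and 3.09% lower by that much. For PDGFB-NLS over Control, the median of 38 members was -0.11, with 11 above the all-gene median and 27 below. The counting interval lay above 0 for 3 members and below 0 for 10. Past 1.5-fold, 2 members were higher (Irf7 and Adar) and 5 lower (Parp9, Isg15, Xaf1, Ifit1 and Rsad2), beside 5.8% higher and 1.91% lower among 13472 genes. For PDGFB-WT over Control, the median of 25 members was -0.09, with 11 above the all-gene median. There 0 members were higher and 3 lower past 1.5-fold (Usp18, Oasl1 and Cgas), beside 5.91% higher and 2.97% lower among 10859 genes. With counts limited to regions called in all 3 libraries, the medians were -0.01, -0.10 and -0.02 in the same order. The microglia or macrophage markers had medians of 0.01, -0.10 and -0.25 in these comparisons, and the part of such nuclei in the members' medians was not tested beyond the values by class given below.

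**Figure D2:**
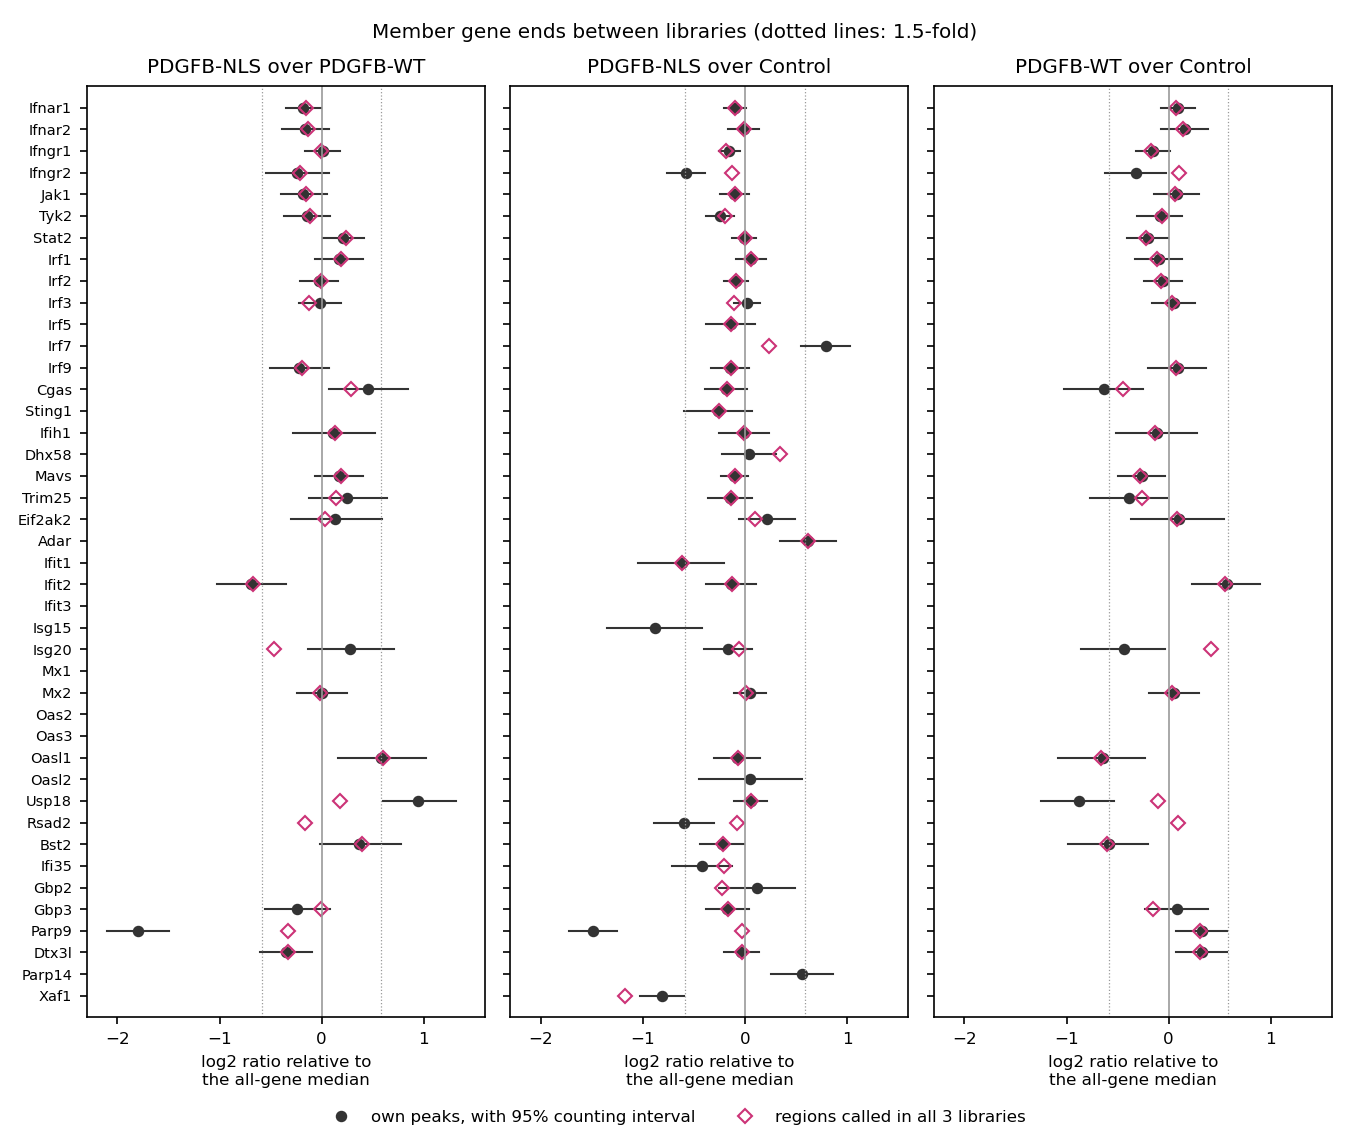
Log2 ratio of CPM relative to the all-gene median (horizontal axis) for each member in PDGFB-NLS over PDGFB-WT, PDGFB-NLS over Control and PDGFB-WT over Control. Filled circles with bars are own peaks with the 95% counting interval, open diamonds the same in regions called in all 3 libraries, and dotted lines mark 1.5-fold. The receptors and kinases lie within the dotted lines in all 3 panels. In the shared regions Parp9, Usp18, Irf7 and Rsad2 lie nearer to 0 than over own peaks, while Xaf1 lies at -1.17 in PDGFB-NLS over Control, beyond its -0.81 over own peaks.

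The receptors and their kinases were open at similar levels in the 3 libraries. Ifnar1, a chain of the type I interferon receptor (gene ID 15975; chromosome 16, 91485032 to 91510523, mm10), had 104 CPM in PDGFB-NLS, 107 in PDGFB-WT and 112 in Control. Its ratio was -0.18 (-0.35 to -0.01) for PDGFB-NLS over PDGFB-WT and -0.10 (-0.21 to 0.01) for PDGFB-NLS over Control. Its partner Ifnar2 had 53.9, 54.5 and 54.8 CPM, with 0.16 (-0.07 to 0.39) for PDGFB-WT over Control. Its intervals included 0 in all 3 comparisons. These sums joined peaks that differed in opposite directions. The peak at the start of Ifnar2 held 29.3, 34.5 and 28.04 CPM, highest in PDGFB-WT, while the peak at its other end was lowest there. At the start alone the ratio was 0.46 for PDGFB-WT over Control, under 1.5-fold. Ifnar2 shares a peak with Il10rb. The kinase gene Jak1 had 60.5, 61.9 and 65.6 CPM, with -0.11 (-0.25 to 0.04) for PDGFB-NLS over Control, and Tyk2 had 59.9, 59.9 and 71.5 CPM. None of the 7 genes of this role was past 1.5-fold in any of the 3 comparisons, though all 7 stood below the all-gene median in PDGFB-NLS over Control. In that comparison the counting interval lay below 0 for Ifngr1 (-0.15, -0.26 to -0.05), Tyk2 (-0.24, -0.39 to -0.10) and Ifngr2 (-0.57, -0.76 to -0.39). Ifngr1, the ligand-binding chain for interferon gamma, had 113 CPM in PDGFB-NLS, 102 in PDGFB-WT and 127 in Control.

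Ifngr2, the second chain of the interferon gamma receptor (gene ID 15980; chromosome 16, 91547059 to 91564007), showed how a peak list can set such a value. Its ends had 29.6 CPM in PDGFB-NLS, 31.7 in PDGFB-WT and 44.5 in Control. Control had a peak at 91547844 to 91548433 with 11.7 CPM that was called in neither PDGFB library, and over the shared region PDGFB-NLS over Control was -0.13 (-0.33 to 0.07). Stat2, which carries the type I signal to the nucleus (gene ID 20847; chromosome 10, 128270498 to 128292853), had 93.2 CPM in PDGFB-NLS, 72.9 in PDGFB-WT and 94.5 in Control. PDGFB-WT stood lowest. Its ratio was 0.21 (0.01 to 0.41) for PDGFB-NLS over PDGFB-WT, -0.01 (-0.12 to 0.11) for PDGFB-NLS over Control and -0.21 (-0.41 to -0.01) for PDGFB-WT over Control. The same peak is that of the neighbouring gene Apof.

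Among the interferon regulatory factors, Irf1, Irf2, Irf3 and Irf9 were steady across libraries and Irf5 and Irf7 were not. Irf3, the factor that STING activates (gene ID 54131; chromosome 7, 44997648 to 45002848), had 74.1 CPM in PDGFB-NLS, 67.9 in PDGFB-WT and 73.7 in Control. Irf9, the DNA-binding partner of STAT2, had 35.4, 37.3 and 39.4 CPM. For both genes the counting interval included 0 in all 3 comparisons, and for PDGFB-NLS over Control the ratios were 0.02 (-0.11 to 0.15) and -0.14 (-0.33 to 0.04). Irf1, which interferon gamma induces, had 63.3, 51.1 and 61.4 CPM, and its antagonist Irf2 had 90.9, 83.9 and 97.6 CPM, again with intervals that included 0 in the 3 comparisons. Irf3 shares a peak with Bcl2l12 and Irf9 with Rnf31.

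Irf7, the factor that amplifies type I interferon production (gene ID 54123; chromosome 7, 141263183 to 141266499), had 28.8 CPM in PDGFB-NLS, 10.4 in PDGFB-WT and 16.8 in Control. PDGFB-NLS was highest, by 0.79 (0.55 to 1.03) over Control or 1.73-fold. The peak over the start held 19.5 CPM in PDGFB-NLS and 16.8 CPM in Control, and over it the ratio was 0.23 (-0.03 to 0.49). The rest came from a second peak, at 141264652 to 141265511 in PDGFB-NLS with 9.28 CPM and at 141264661 to 141265466 in Control with 10.2 CPM, which fell inside the window in PDGFB-NLS and just outside it in Control. At windows of 2000 bp the direction turned, to -0.29. Irf5, a factor of macrophages and other immune cells, had 20.8 CPM in PDGFB-NLS, 7.56 CPM (5.20 to 10.6) in PDGFB-WT and 23.2 CPM in Control. PDGFB-WT stood apart from the other libraries with 51 counts, under the minimum, and without the second peak that both other libraries had.

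The DNA sensor and its adaptor were open in all 3 libraries. Cgas, which makes the second messenger of cytosolic DNA (gene ID 214763; chromosome 9, 78430518 to 78443237), had 28.7 CPM in PDGFB-NLS, 18.97 in PDGFB-WT and 32.9 in Control. PDGFB-WT was lowest. Cgas was higher in PDGFB-NLS than in PDGFB-WT by 0.45 (0.07 to 0.85) and differed from Control by -0.19 (-0.39 to 0.01) in PDGFB-NLS and by -0.63 (-1.02 to -0.25) in PDGFB-WT. The peak at its start, shared with the neighbour Mto1, gave -0.45 (-0.85 to -0.07) for PDGFB-WT over Control, which is under 1.5-fold, and a smaller peak at the other end was not called in PDGFB-WT. Cgas stayed past 1.5-fold for PDGFB-WT over Control under 6 of 12 alternatives and turned to 0.28 per kb of peak. Sting1, the adaptor downstream (gene ID 72512; chromosome 18, 35733678 to 35740554), had 10.4 CPM in PDGFB-NLS, 11.1 CPM (7.94 to 15.1) in PDGFB-WT and 12.6 CPM in Control. Its ratio was -0.26 (-0.60 to 0.07) for PDGFB-NLS over Control, and its 75 counts in PDGFB-WT were under the minimum.

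The RNA sensors and their adaptor held similar levels in PDGFB-NLS and Control, and their CPM over own peaks was lowest in PDGFB-WT. In the shared regions, of those compared, only Mavs had a counting interval below 0 for PDGFB-WT over Control. Ifih1, a cytosolic sensor of long double-stranded RNA (gene ID 71586; chromosome 2, 62595618 to 62646255), had 21.4 CPM in PDGFB-NLS, 17.9 in PDGFB-WT and 21.7 in Control. Mavs (gene ID 228607; chromosome 2, 131234063 to 131248025) had 67.8, 54.7 and 73.5 CPM. For PDGFB-NLS over Control the ratio of Ifih1 was -0.01 (-0.26 to 0.23) and that of Mavs -0.11 (-0.24 to 0.03). Mavs was lowest in PDGFB-WT, at -0.26 (-0.49 to -0.03) relative to Control and -0.28 (-0.51 to -0.05) in the shared region. For Ifih1 the ratio of PDGFB-WT over Control was -0.11 (-0.52 to 0.28). Dhx58, a regulator of the RNA sensors, had 18.4, 12.3 and 18.04 CPM. Its 83 counts in PDGFB-WT were under the minimum, and the peak at 1 of its ends was not called there. In the shared region Dhx58 had 9.89, 12.3 and 7.91 CPM, highest in PDGFB-WT. The ubiquitin ligase gene Trim25 had 26.9, 20.5 and 29.98 CPM, or -0.38 (-0.77 to -0.02) for PDGFB-WT over Control. In the shared region Trim25 was at -0.27 (-0.65 to 0.10), and a smaller peak at its other end was not called in PDGFB-WT. Eif2ak2, the kinase PKR that halts translation on binding double-stranded RNA (gene ID 19106; chromosome 17, 78850504 to 78882572), had 18.1 CPM in PDGFB-NLS, 14.97 in PDGFB-WT and 15.7 in Control. Its intervals included 0 in all 3 comparisons, with 0.22 (-0.06 to 0.49) for PDGFB-NLS over Control and 0.10 (-0.37 to 0.54) for PDGFB-WT over Control. All 5 sensors and adaptors compared for PDGFB-NLS over PDGFB-WT stood above the all-gene median (median 0.17), and 1 of the 5 did for PDGFB-WT over Control (median -0.26). PDGFB-WT is a part of both of these comparisons.

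Adar, which edits double-stranded RNA so that the sensors ignore it (gene ID 56417; chromosome 3, 89714469 to 89753455), was higher in PDGFB-NLS. It had 19.6 CPM in PDGFB-NLS, 10.7 CPM (7.81 to 14.2) in PDGFB-WT and 12.9 CPM in Control, which is 0.61 (0.34 to 0.89) or 1.53-fold for PDGFB-NLS over Control. In the region called in all 3 libraries the ratio was 0.62 (0.34 to 0.90). The peaks inside the gene differed among themselves. A peak at 89723139 to 89724079 held 11.5 CPM in PDGFB-NLS and, at 89723143 to 89724053, 4.81 CPM in Control, and was not called in PDGFB-WT. The peak over an internal annotated start, 89730718, held 27.2 CPM in PDGFB-NLS, 22.2 in PDGFB-WT and 33.4 in Control, and with all annotated starts together the ratio was 0.03.

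Of the induced genes, Xaf1 gave the one difference past 1.5-fold that stayed past it under each of 17 other ways of processing (-1.17 to -0.68 for PDGFB-NLS over Control). Xaf1, a cofactor of cell death that interferon induces (gene ID 327959; chromosome 11, 72301461 to 72313733), had 20.5 CPM in PDGFB-NLS, 6.82 CPM (4.37 to 10.1) in PDGFB-WT and 36.3 CPM in Control. Control was highest and PDGFB-WT lowest. PDGFB-NLS over Control was -0.81 (-1.03 to -0.59), or 1.76-fold lower, and -1.17 (-1.56 to -0.80) in the region called in all 3 libraries. The peak over the start held 6.47 CPM in PDGFB-NLS, 6.82 in PDGFB-WT and 14.7 in Control. A second peak beside it held 11.4 CPM in PDGFB-NLS and 19.5 CPM in Control and was not called in PDGFB-WT. Leaving out the microglia or macrophage-like nuclei, Xaf1 was at -0.98 for PDGFB-NLS over Control. Xaf1 shares a peak with Fbxo39. Oligodendrocyte-like nuclei, described below, held 59.0% of the Xaf1 counts in PDGFB-NLS and 62.8% in Control, and oligodendrocyte markers summed to 313 CPM in PDGFB-NLS, 168 CPM in PDGFB-WT and 334 CPM in Control. Of these 15 markers, Mag, Mal, Mobp and Nkx6-2 had no peak in PDGFB-WT, so the sum there leaves them out.

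The IFIT genes, whose products bind foreign RNA, differed among themselves. Ifit1 (gene ID 15957; chromosome 19, 34640889 to 34650009) had 6.02 CPM in PDGFB-NLS, 12.004 CPM (8.61 to 16.3) in PDGFB-WT and 9.35 CPM in Control. It was lowest in PDGFB-NLS, at -0.62 (-1.05 to -0.20) relative to Control over the peak on the promoter shown above. Ifit2 (gene ID 15958; chromosome 19, 34550550 to 34576534) had 19.9 CPM in PDGFB-NLS, 29.2 in PDGFB-WT and 22.1 in Control. PDGFB-WT was highest, with -0.69 (-1.03 to -0.35) or 1.62-fold lower for PDGFB-NLS over PDGFB-WT, and 0.57 (0.23 to 0.90) for PDGFB-WT over Control. In the shared region these were -0.67 and 0.55. Ifit3 held 53 counts in PDGFB-NLS and 142 in Control, and no peak in PDGFB-WT, so no ratio is given. Ifit1 shares its peak with the paralog Ifit1bl2, and whether reads from similar copies were split between them was not examined.

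Isg15, the ubiquitin-like modifier (gene ID 100038882; chromosome 4, 156199424 to 156200818), had 4.76 CPM in PDGFB-NLS and 8.84 CPM in Control, with no peak in PDGFB-WT. PDGFB-NLS was lower, at -0.88 (-1.36 to -0.42) or 1.84-fold, from 117 and 228 counts in a single peak over the promoter with the long response element. With windows of 2000 bp it was at -0.33. Usp18, the protease that removes ISG15 and dampens the receptor (gene ID 24110; chromosome 6, 121245906 to 121270917), had 45.7 CPM in PDGFB-NLS, 21.5 in PDGFB-WT and 44.4 in Control. PDGFB-WT stood lowest, with 0.95 (0.60 to 1.31) for PDGFB-NLS over PDGFB-WT and -0.88 (-1.25 to -0.53) for PDGFB-WT over Control. In the shared regions these became 0.18 (-0.10 to 0.46) and -0.11 (-0.39 to 0.17). The second region of Usp18 begins near the edge of the window and was counted in PDGFB-NLS and Control at 17.3 and 16.4 CPM, while in PDGFB-WT the peak there lay past the window.

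Rsad2, which codes for viperin (gene ID 58185; chromosome 12, 26442743 to 26456452), had 12.2 CPM in PDGFB-NLS, 11.9 CPM (8.54 to 16.03) in PDGFB-WT and 18.6 CPM in Control. Its -0.60 (-0.90 to -0.30) for PDGFB-NLS over Control became -0.08 (-0.35 to 0.19) in the shared regions. The peak on its promoter alone held 12.2 CPM in PDGFB-NLS, 11.9 in PDGFB-WT and 14.1 in Control. Oasl1, a negative regulator of Irf7 translation in the mouse (gene ID 231655; chromosome 5, 114923143 to 114937911), had 25.4 CPM in PDGFB-NLS, 15.4 in PDGFB-WT and 27.0 in Control. PDGFB-WT was lowest, and here the shared regions gave nearly the same values, 0.60 (0.19 to 1.04) for PDGFB-NLS over PDGFB-WT and -0.66 (-1.10 to -0.25) for PDGFB-WT over Control. With windows of 500 bp Oasl1 turned to 1.14 for PDGFB-WT over Control, because the peak upstream reached into that window in PDGFB-WT and not in Control. The peak at the start alone held 9.57 CPM in PDGFB-NLS, 6.67 in PDGFB-WT and 7.797 in Control. Bst2, the tetherin that holds virions at the membrane, followed the same order with 25.8 CPM in PDGFB-NLS, 18.1 in PDGFB-WT and 30.4 in Control. It stood at 0.37 (-0.02 to 0.78) for PDGFB-NLS over PDGFB-WT and at -0.58 (-0.98 to -0.20), just inside 1.5-fold, for PDGFB-WT over Control. Isg20, an exonuclease gene next to Aen, had 21.2, 15.9 and 24.0 CPM, and its ratio for PDGFB-WT over Control was -0.43 over own peaks and 0.42 in the shared region.

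Parp9 and Dtx3l, which code for partners in ADP-ribosylation and ubiquitination, start from the same locus on chromosome 16. Dtx3l (gene ID 209200; 35926515 to 35939027) had 41.8 CPM in PDGFB-NLS, 48.3 in PDGFB-WT and 43.3 in Control, with -0.35 (-0.60 to -0.09) for PDGFB-NLS over PDGFB-WT. Parp9 (gene ID 80285; 35938470 to 35972621) had 15.3 CPM in PDGFB-NLS and the same 48.3 and 43.3 CPM as Dtx3l in PDGFB-WT and Control. Its -1.80 (-2.097 to -1.50) and -1.49 (-1.72 to -1.25) for PDGFB-NLS over PDGFB-WT and over Control were the lowest of all members compared. The second peak of the locus starts at 35939480 in PDGFB-NLS, just past the window, at 35939456 in PDGFB-WT and at 35939461 in Control. In the shared regions Parp9 equalled Dtx3l, at -0.33 and -0.03.

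The remaining induced genes were mostly low. Mx2 had 52.9 CPM in PDGFB-NLS, 47.7 in PDGFB-WT and 51.6 in Control, and Gbp3, an interferon-induced GTPase gene, had 27.6, 29.5 and 31.3 CPM, with -0.24 (-0.55 to 0.08) for PDGFB-NLS over PDGFB-WT. Mx1 had 3.38 CPM in PDGFB-NLS, 11.6 CPM (8.30 to 15.7) in PDGFB-WT and 3.49 CPM in Control, highest in PDGFB-WT, but from 83, 78 and 90 counts, under the minimum in each library. Both Mx genes are annotated as transcribed pseudogenes in the table used. Ifi35 had 13.2, 12.3 and 17.8 CPM, with -0.42 (-0.71 to -0.13) for PDGFB-NLS over Control and -0.20 (-0.51 to 0.10) in the shared region. Gbp2 had 9.12, 8.89 and 8.49 CPM, with 0.11 (-0.26 to 0.49) for PDGFB-NLS over Control. PDGFB-WT had 60 counts at Gbp2, under the minimum, and lacked a peak that the other libraries had. In the shared region Gbp2 had 4.19, 8.89 and 4.97 CPM, highest in PDGFB-WT, with -0.23 (-0.77 to 0.30) for PDGFB-NLS over Control. Oas2, Oasl2 and Parp14 had 2.93, 5.25 and 15.9 CPM in PDGFB-NLS and 4.89, 5.12 and 10.9 CPM in Control, with no peak in PDGFB-WT. Parp14 stood at 0.55 (0.25 to 0.86) for PDGFB-NLS over Control.

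The lack of PDGFB-WT peaks was not particular to these genes. Of the 41 members with a Control peak, 5 (12.2%) had none in PDGFB-WT (Ifit3, Isg15, Oas2, Oasl2 and Parp14), and the same held for 12.8% of 14823 genes. Among genes at or below the 10.9 CPM of Parp14 in Control, 5 of 8 members (62.5%) and 52.6% of 3062 genes had no PDGFB-WT peak.

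The other genes of the pathway had medians just below the all-gene median, with other counts past 1.5-fold than the members. Of 56 that are no members, 35 were compared for PDGFB-NLS over PDGFB-WT, with a median of -0.06 and 1 higher and 0 lower past 1.5-fold, beside the 2.46% and 3.09% of all genes. For PDGFB-NLS over Control 47 were compared, with a median of -0.06 and 1 gene past 1.5-fold in each direction, beside 5.8% and 1.91%. For PDGFB-WT over Control 35 were compared, with a median of -0.07, 3 higher and 1 lower, beside 5.91% and 2.97%. The gene that stood out was Aim2, an inflammasome sensor of cytosolic DNA, with 15.3 CPM in PDGFB-NLS, 15.7 in PDGFB-WT and 9.04 in Control. It was highest of these genes over Control in both PDGFB libraries, at 0.77 (0.43 to 1.11) in PDGFB-NLS and 0.96 (0.47 to 1.44) in PDGFB-WT, and 0.77 and 0.95 in the shared region. Other peaks of Aim2 went the other way over Control, with -0.31 for PDGFB-NLS at annotated starts, and -0.15 (-0.26 to -0.04) for PDGFB-NLS and -0.56 (-0.77 to -0.36) for PDGFB-WT inside the gene body. Cmpk2, the mitochondrial nucleotide kinase gene beside Rsad2, was second over Control in PDGFB-NLS (0.41, 0.14 to 0.67), and Nlrc5, the activator of MHC class I genes, was second in PDGFB-WT (0.70, 0.37 to 1.03). The lowest were Ifitm2 (-0.63) and Pml (-0.57) for PDGFB-NLS over Control, and Rnaseh2b (-0.75) and Tlr9 (-0.49) for PDGFB-WT over Control. For PDGFB-NLS over PDGFB-WT, Tlr9 (0.62) and Rnaseh2b (0.47) were highest and Ifi27 (-0.57) and Nlrc5 (-0.38) lowest.

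Inside the gene bodies, at peaks more than 1000 bp from both ends, fewer members could be compared. For PDGFB-NLS over Control 17 members had a median of -0.33 relative to the median of 8692 genes, with 4 above it. Of these, 1 was higher (Ifi35) and 2 lower (Tyk2 and Parp14) past 1.5-fold, beside 14.4% and 5.73% of all genes. For PDGFB-WT over Control, 7 members had a median of -0.43, with 0 higher and 3 lower (Ifngr2, Irf5 and Dhx58), beside 18.8% higher and 14.9% lower among 4812 genes. For PDGFB-NLS over PDGFB-WT, 7 members had a median of 0.16, with 1 higher (Ifngr2) and 0 lower, beside 13.3% and 10% of 4830 genes. Irf5 had 31.5 CPM at such peaks in PDGFB-NLS, 23.3 in PDGFB-WT and 41.0 in Control, from 2 peaks in each library. Its inner ratios were -0.48 (-0.67 to -0.29) for PDGFB-NLS over Control and -0.64 (-0.998 to -0.30) for PDGFB-WT over Control. Tyk2, with 1 inner peak in each library, had 11.5 CPM there in PDGFB-NLS, 10.5 in PDGFB-WT and 16.99 in Control, or -0.67 (-0.97 to -0.36) for PDGFB-NLS over Control. Irf2 had 130 CPM from 12 inner peaks in PDGFB-NLS, 106 CPM from 6 in PDGFB-WT and 152 CPM from 17 in Control. These sums are not over the same peaks. Only the 6 of PDGFB-WT lay in regions called in all 3 libraries, and the order of the libraries differed among those 6. The inner ratio of Ifngr2 rests on the lists, since 4 inner peaks were called in PDGFB-NLS and Control and 1 in PDGFB-WT. Those of Ifi35 and Dhx58 rest on the lists in part. Ifi35 had 2 inner peaks in PDGFB-NLS and 1 in Control, and the shared one held 7.94 and 5.20 CPM. Dhx58 had 1 inner peak in PDGFB-WT and 2 in Control, and the shared one held 15.7 and 23.0 CPM.

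Nuclei were then grouped in each library alone, and clusters were named from markers that contain no member. Microglia or macrophage-like nuclei were cluster 0 of PDGFB-NLS (2877 nuclei, 26.2%), cluster 0 of PDGFB-WT (2282, 30.7%) and cluster 1 of Control (493, 22.1%), with medians of 3427, 850.5 and 23324 counts. These nuclei carried more of the members' signal than of the total. They held 42.9% of the counts at member gene ends in PDGFB-NLS, 43.7% in PDGFB-WT and 45.2% in Control, against 32.0%, 30.4% and 35.7% of all counts. Counts in peaks shared by Parp9 and Dtx3l entered the member shares once for each gene. Since the same peaks formed the clusters, what follows is a description with no test.

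Compared with the other nuclei of the library, microglia or macrophage-like nuclei had 15 of 29 compared members higher past 1.5-fold in PDGFB-NLS, beside 9.55% of all compared genes. The count was 5 of 14 in PDGFB-WT, beside 4.75%, and 17 of 34 in Control, beside 12.2%. In PDGFB-WT and Control these counts include both Parp9 and Dtx3l, which rest on the same peaks there. Lower past 1.5-fold were 1 member in PDGFB-NLS (Adar, beside 7.56% of genes), 0 in PDGFB-WT (4.07%) and 1 in Control (Xaf1, 7.26%). The median ratio of the members was 0.63, 0.30 and 0.59 in the order of the libraries, and in PDGFB-NLS it was 0.34 for receptors, kinases and STATs, 0.59 for interferon regulatory factors, 0.94 for sensors and adaptors and 1.40 for induced genes. Cgas stood near the top in each library, with 63.5 CPM in microglia or macrophage-like nuclei and 11.9 CPM in the other nuclei of PDGFB-NLS. It had 44.9 and 7.30 CPM in PDGFB-WT and 66.7 and 14.5 CPM in Control. The microglia or macrophage-like nuclei thus held 72.02% of the Cgas counts in PDGFB-NLS, 73.4% in PDGFB-WT and 71.5% in Control. Sting1 had 21.2 CPM in these nuclei and 5.19 CPM in the others in PDGFB-NLS, 16.7 and 8.59 CPM in PDGFB-WT, and 23.4 and 6.65 CPM in Control. In PDGFB-WT both genes were under the minimum for this comparison, as was Sting1 in PDGFB-NLS, so no ratio was taken there.

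**Figure D3:**
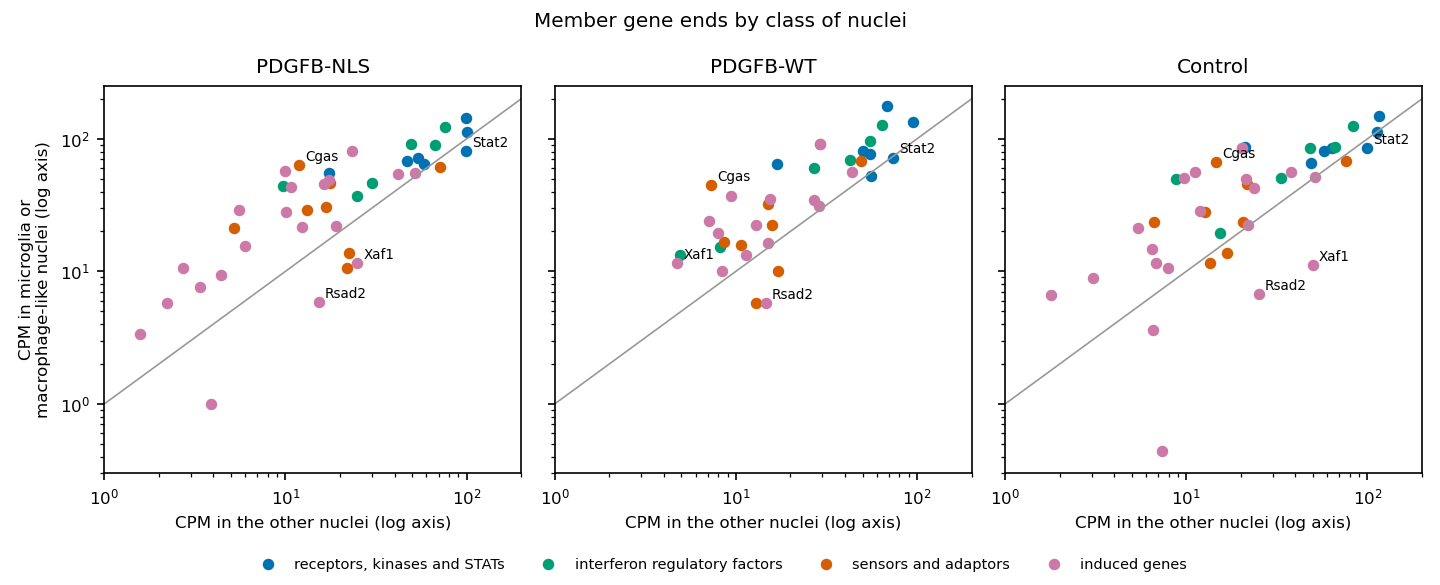
CPM at member gene ends in microglia or macrophage-like nuclei (vertical log axis) against the other nuclei of the same library (horizontal log axis), colored by role, with members of any count that have a peak; the line marks equal CPM. Cgas lies far above the line in each library, at 63.5 against 11.9 CPM in PDGFB-NLS, Stat2 lies just below it, and Rsad2 and, in PDGFB-NLS and Control, Xaf1 lie well below it.

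Other members weighted toward microglia or macrophage-like nuclei came from each role. Irf5 had a log2 ratio of 2.12 (1.75 to 2.51) in PDGFB-NLS and 2.48 (2.11 to 2.87) in Control, and Oasl1 had 2.46 (2.095 to 2.84) and 2.31 (1.96 to 2.66). Isg20 stood at 1.95 and 2.36, Ifngr2 at 1.59 and 2.04, and Dtx3l at 1.71 and 2.07, with 1.26 in PDGFB-WT. In PDGFB-WT, Oasl1 had 16.2 CPM in these nuclei and 15.04 CPM in the others. The type I receptor showed less of this weighting. Its chain Ifnar2, counted with a peak shared with Il10rb, stood at 0.46 (0.24 to 0.68) in PDGFB-NLS, -0.48 (-0.95 to -0.04) in PDGFB-WT and 0.41 (0.19 to 0.62) in Control. Ifnar1 stood at 0.08 (-0.08 to 0.25) in PDGFB-NLS, 0.10 (-0.22 to 0.40) in PDGFB-WT and -0.03 (-0.19 to 0.12) in Control. Stat2 was below the all-gene median in these nuclei, at -0.38 (-0.57 to -0.19), -0.41 (-0.82 to -0.02) and -0.24 (-0.42 to -0.07). Rsad2, though an induced gene, had 5.89 CPM in microglia or macrophage-like nuclei and 15.3 CPM in the others in PDGFB-NLS, and 6.71 and 25.1 CPM in Control. Its counts were under the minimum for this comparison in both libraries, so no ratio was taken.

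A few members were weighted toward other classes. Xaf1 was high in oligodendrocyte-like nuclei, with 61.4 CPM against 10.4 CPM in the other nuclei of PDGFB-NLS (2.56, 2.20 to 2.92) and 90.3 against 18.05 CPM in Control (2.30, 2.04 to 2.58). These classes were cluster 1 of PDGFB-NLS (2156 nuclei) and cluster 3 of Control (361 nuclei), and PDGFB-WT had no such cluster. Between libraries, Xaf1 in oligodendrocyte-like nuclei stood at -0.51 (-0.80 to -0.23) for PDGFB-NLS over Control, while in microglia or macrophage-like nuclei it had 11.5 CPM in PDGFB-NLS, 11.5 in PDGFB-WT and 11.2 in Control. The PDGFB-WT level is not over the same peaks. Xaf1 had 1 peak there, with 46 counts in the whole library, and 3 peaks in each of PDGFB-NLS and Control. In endothelial-like nuclei (cluster 4 of PDGFB-NLS with 1164 nuclei, cluster 0 of Control with 509), of the class that lines blood vessels, Irf9 stood at 1.22 (0.87 to 1.56) in PDGFB-NLS and 1.18 (0.88 to 1.47) in Control, and Bst2 at 1.03 (0.59 to 1.45) and 1.20 (0.86 to 1.53). In Control, 9 of 21 compared members were higher past 1.5-fold in endothelial-like nuclei, beside 9.88% of all genes, among them Rsad2 (1.10), Ifi35 (1.24) and Eif2ak2 (1.22). In PDGFB-NLS 2 of 13 were, beside 7.09%. Adar was higher in oligodendrocyte precursor-like nuclei of PDGFB-NLS, with 32.5 CPM against 17.3 CPM in the other nuclei (1.01, 0.58 to 1.41), and in its oligodendrocyte-like nuclei (0.77, 0.37 to 1.16). Astrocyte-like nuclei had lower Irf1, at -0.72 (-1.02 to -0.43) in PDGFB-NLS and -1.40 (-1.80 to -1.02) in Control.

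**Figure D4:**
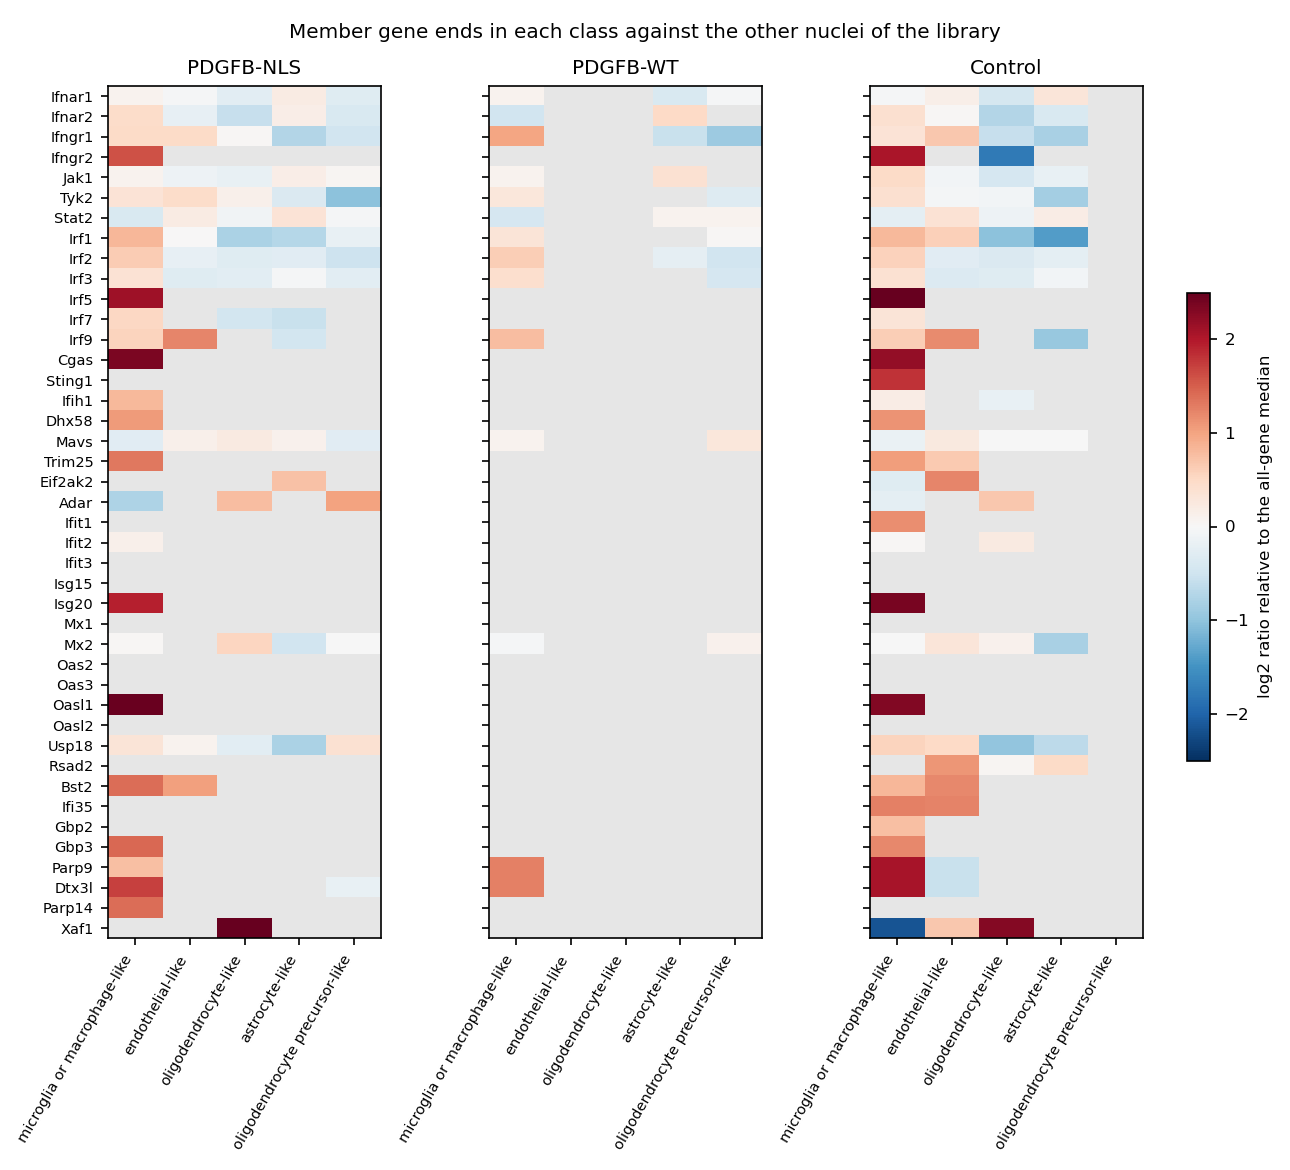
Log2 ratio of CPM relative to the all-gene median (color, red higher and blue lower) at each member in 5 classes of nuclei against all other nuclei of the same library; grey cells were not compared, either for under 100 counts in one of the sides or because the class had no cluster there. The red column is that of microglia or macrophage-like nuclei, where Cgas reaches 2.35 in PDGFB-NLS and 2.19 in Control, and Xaf1 is red in oligodendrocyte-like nuclei at 2.56 and 2.30.

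Within microglia or macrophage-like nuclei few of the members with enough counts were past 1.5-fold between libraries. For PDGFB-NLS over PDGFB-WT, 15 members were compared, with a median of -0.09, 0 higher and 1 lower (Parp9) past 1.5-fold, beside 2.58% higher and 1.32% lower among all genes. For PDGFB-NLS over Control, 32 were compared, with a median of -0.03, 1 higher (Irf7) and 2 lower (Parp9 and Ifngr2), beside 0.8% and 1.52%. For PDGFB-WT over Control, 15 were compared, with a median of -0.05 and 0 past 1.5-fold in either direction, beside 1.56% and 2.97%. The values of Irf7, Parp9 and Ifngr2 were again those of peaks near the window's edge or called in 1 list, and in the shared regions they were 0.24, -0.10 and -0.06 for PDGFB-NLS over Control. Cgas stood at -0.08 (-0.32 to 0.16) and Sting1 at -0.15 (-0.57 to 0.26) for PDGFB-NLS over Control in these nuclei. In PDGFB-WT most members were under the minimum in these nuclei, Cgas among them with 94 counts and 44.9 CPM. Some of these stood lower in PDGFB-WT without a ratio being taken. Oasl1 had 57.5 CPM in PDGFB-NLS, 16.2 CPM from 34 counts in PDGFB-WT and 56.0 CPM in Control. Irf5 had 44.1, 13.4 and 49.6 CPM, with 28 counts in PDGFB-WT. Isg20 had 43.2, 22.5 and 50.4 CPM, with 47 counts in PDGFB-WT. For Irf5 and Isg20 PDGFB-WT lacked a peak that the other libraries had.

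**Figure D5:**
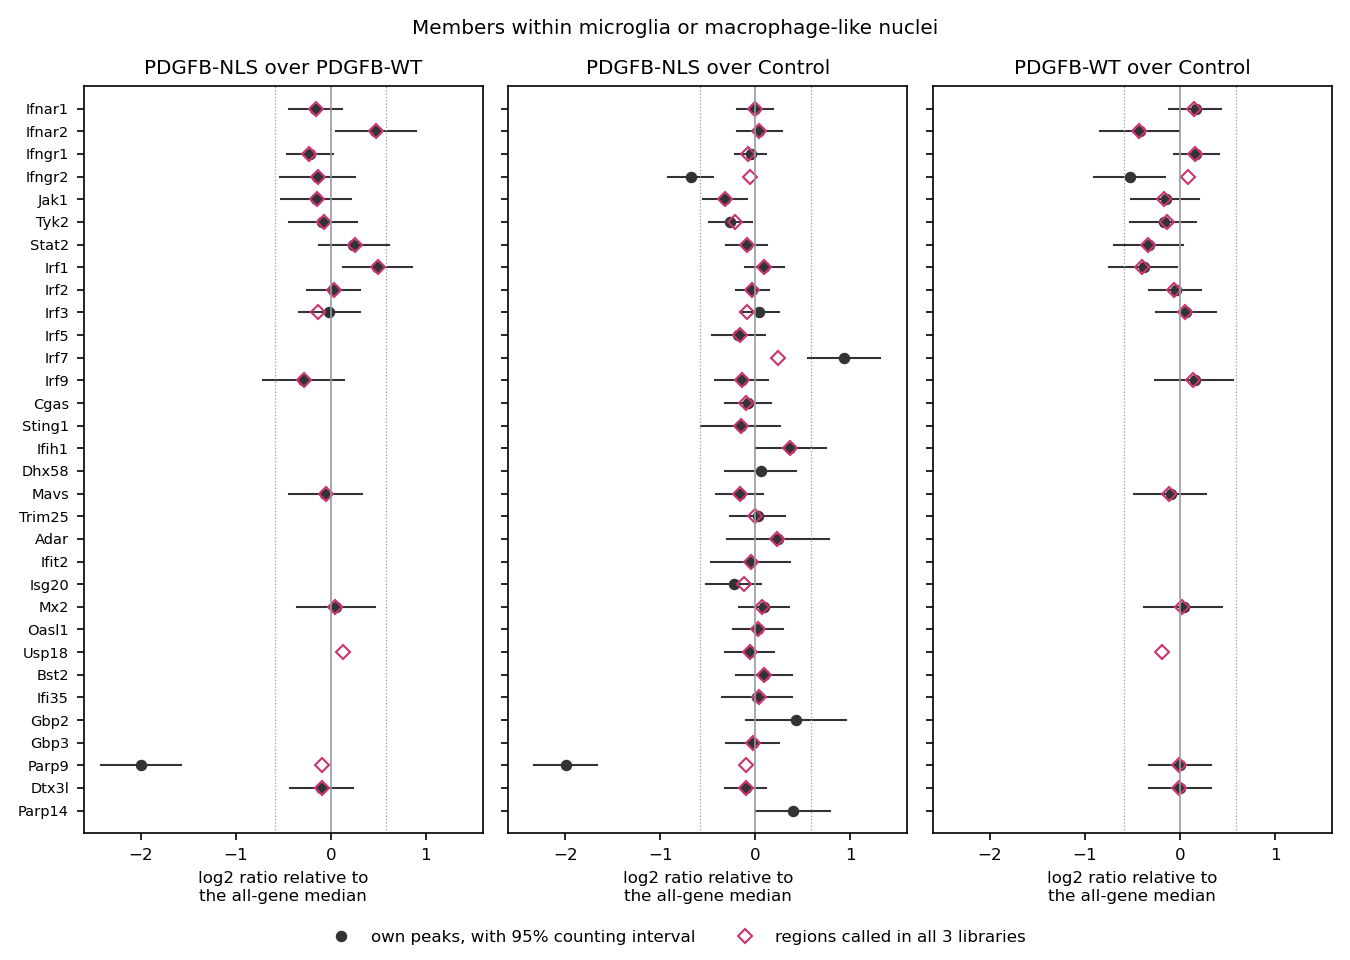
Log2 ratio of CPM relative to the all-gene median (horizontal axis) between libraries, counted only in microglia or macrophage-like nuclei, for the members compared in at least 1 of the 3 comparisons. Filled circles with bars are own peaks with 95% counting intervals, open diamonds the regions called in all 3 libraries, and dotted lines mark 1.5-fold. All open diamonds lie within the dotted lines, and Parp9 moves from -1.99 to -0.10 in PDGFB-NLS over Control.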

How the data were processed

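Accessibility was measured with the 10X single-cell ATAC kit v2 in 3 mouse libraries. The deposited values are raw counts per peak and barcode, which the authors made with cellranger-atac 2.1.0 per the file headers. Cell Ranger 8 and the build mm10 are named in the submitters' processing notes. How peaks and cells were called is not given in the sources used here. The deposited peaks were called per library. In the counts, the value 2 makes 87.9%, 89.4% and 72.9% of entries in PDGFB-NLS, PDGFB-WT and Control, so intervals were built on fragments, each odd value rounded up. Members and lists were chosen with earlier results of these data known.

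Barcodes with at least 200 counts and chromosomes 1 to 19, X and Y were kept. Regions were the merged peaks of all libraries (147229, of which 47450 were called in all 3). CPM, the ratio relative to the all-gene median, the minimum of 100 counts and the 1.5-fold limit are defined in the text. Intervals are exact 95% Clopper-Pearson intervals, or exact Poisson intervals for single levels in PDGFB-WT, and cover counting error only. Reads carry no molecular identifiers. Every member is accounted for; in full are given the 5 highest and 5 lowest per comparison and 14 genes named by role, and of other pathway genes the 2 highest and 2 lowest.

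Each library was clustered alone (peaks in at least 1% of barcodes, TF-IDF, components 2 to 30, 15 neighbours, Leiden resolution 0.6). A cluster was named where a marker list, over gene bodies with 2000 bp on either side, had a median log2 fold of at least 1, a limit chosen after seeing the data, with at least 3 markers, and no other list had more of its genes among the cluster's top 10. Control clusters 4 and 8 failed only the last condition. No doublet caller was run. PDGFB-WT clusters 3 and 4 and Control clusters 4, 7 and 8 stayed unnamed and count among the other nuclei. The ratio code was tested on simulated data. Of 17 alternatives, 15 were planned and 2 (only peaks at annotated starts; no microglia or macrophage-like nuclei) were chosen after seeing the data. Used were Python 3.11.15, numpy 2.4.6, scipy 1.17.1, pandas 2.3.3, scikit-learn 1.9.0, leidenalg 0.10.2, igraph 0.11.9 and matplotlib 3.10.9.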

Additional observations from a re-analysis of the deposited data

How the results depend on the processing

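Across the 17 alternatives the median of the members stayed between -0.15 and -0.09 for PDGFB-NLS over Control, between -0.16 and 0.15 for PDGFB-NLS over PDGFB-WT and between -0.26 and 0.08 for PDGFB-WT over Control. The number of members past 1.5-fold depended on the settings. In some settings a called member fell under the minimum and was no longer compared, so its loss from the count there says nothing of its ratio. Other causes were not tested except where a peak at the window's edge is named in the report. For PDGFB-NLS over PDGFB-WT, the 1 higher member became 0 with windows of 500 bp, with counts read as 0 or 1 or as fragments, with barcodes of at least 1000 counts, with at least 300 counts per gene, per kb of peak and without microglia or macrophage-like nuclei, 5 with no minimum and 3 with the all-gene median not taken off. Of the settings that gave 0, Usp18 was compared only with windows of 500 bp and per kb of peak. The 2 lower became 1 with windows of 2000 bp, in the regions called in all 3 libraries, with at least 300 counts, with the median not taken off and at gene starts, 4 with no minimum and 6 per kb. For PDGFB-NLS over Control, the 2 higher became 1 with windows of 2000 bp, in the shared regions and with counts as 0 or 1, and 0 at gene starts. The 5 lower became 3 with windows of 500 bp, with at least 300 counts, at gene starts and without microglia or macrophage-like nuclei, and 2 with windows of 2000 bp, in the shared regions and with counts as fragments. For PDGFB-WT over Control, the 0 higher became 1 with windows of 500 bp and with no minimum, 2 per kb and 3 without microglia or macrophage-like nuclei. The 3 lower became 0 with counts as 0 or 1 or as fragments, with barcodes of at least 1000 counts, with at least 300 counts and without microglia or macrophage-like nuclei, 6 with no minimum and 5 with the median not taken off. In the settings that gave 0, Usp18, Oasl1 and Cgas were under the minimum and were not compared. Direction turned for Parp9 in PDGFB-NLS over Control (0.24) and Oasl1 in PDGFB-WT over Control (1.14) with windows of 500 bp, for Irf7 in PDGFB-NLS over Control with windows of 2000 bp (-0.29), and per kb for Irf7 (-0.17) and Rsad2 (0.51) in PDGFB-NLS over Control and Cgas in PDGFB-WT over Control (0.28). Of the other values for single genes, 1264 lay within the counting interval of the reported value and 92 outside it. No paired analysis was possible because each group is 1 library and the groups share a single replicate number. The depth of PDGFB-WT sets the limit: a gene below about 14.8 CPM there could not be compared.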
